A study of Mus musculus with 57 samples.

Results

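The expression of 7 B cell genes was followed in CD11b-positive cells of mouse brain. The genes were Cd79a, Cd79b, Ms4a1, Ighm, Igkc, Pax5 and Ebf1. They were taken by symbol as textbook markers of the B lineage, and all 7 were found in both deposited count tables, among 50565 genes of one and 53278 of the other. RNA was sequenced from adult wild-type (WT) mice and from littermates deficient in P2RY12 (KO), a nucleotide receptor of resting microglia. The labels call the CD11b-positive cells microglia, and the kind of P2ry12 allele is not given in the sources used here.

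In the first experiment, called the sex experiment here, the males comprised 4 WT and 5 KO samples and the females 4 WT and 5 KO samples, with no treatment tag of their own. In the second, the LPS experiment, WT and KO samples carried the label LPS or ns. LPS stands for lipopolysaccharide from the bacterial cell wall, given into the peritoneum at 1 mg/kg, whereas ns is not defined in the labels. The interval between injection and collection and the sex of these animals are not given in the sources used here. The 33 libraries gave 8 WT ns, 8 WT LPS, 8 KO ns and 8 KO LPS samples, because WT LPS 8 and WT LPS 9 were summed. They came in 2 library sets, each holding all 4 groups.

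CD79A and CD79B are the signalling chains that carry the B cell receptor. Ighm encodes the constant part of the IgM heavy chain and Igkc that of the kappa light chain, each joined in a mature B cell to a rearranged variable segment. Ms4a1 encodes CD20, a surface protein of mature B cells, while PAX5 and EBF1 are the transcription factors that establish and hold B cell identity. CD11b is an integrin of myeloid cells, which B cells mostly lack. In bulk samples, fewer cells of a type and less RNA per cell cannot be told apart.

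The promoter of Cd79a is shown because it is the textbook joint target of EBF1 and PAX5, both among the genes followed. RefSeq promoter entries matched 3 of the 7 genes, Cd79a, Pax5 and Ebf1. The stretch below is the part of the Cd79a entry that lies before the start of the GENCODE transcript, 134 bases at chr7:24897247-24897380 on the plus strand of GRCm38.p6, written 5′ to 3′. Capitals mark a partial EBF-type site, TCAAGGGA, and an E box, CAGGTG. A PAX5 site was not searched for, and neither marked stretch is given as one.
Cd79a: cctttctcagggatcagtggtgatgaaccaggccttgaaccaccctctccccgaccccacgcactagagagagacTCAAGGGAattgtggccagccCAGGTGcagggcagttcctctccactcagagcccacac
The partial site begins at -59 and the E box at -38 relative to the transcript start. Searched on both strands in the same window of 32851 RefSeq promoters, the partial site was present in 0.463% and the E box in 9.75%. The full EBF palindrome was present in 0.402% of windows and had no match in that of Cd79a. These letters were chosen with the Cd79a sequence in view, and a match is a description of the sequence.

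Library totals were 58.5 to 318.5 M counts (M for mega) in the sex experiment and 15.9 to 168.4 M in the LPS experiment. Low counts were mostly even in the sex experiment but not in the LPS experiment, so counts and totals may not be on a common scale. Levels are in CPM, the count scaled to a common library total after TMM, a scaling by trimmed means. The summed level of 9 microglial markers was 25874 to 41256 CPM in the sex experiment and 16987 to 38027 CPM in the LPS experiment. P2ry12 itself was at 3007 to 5928 CPM in WT and 309 to 526 CPM in KO animals of the sex experiment. In the LPS experiment, 4 WT libraries of number 2 went against their treatment labels. Samples WT ns 1 and WT ns 5, as labelled, held 1781 to 2491 CPM of Saa3, an acute-phase gene, against at most 64.4 CPM in the other WT ns samples. Samples WT LPS 1 and WT LPS 6, as labelled, held 1.59 to 3.21 CPM, against at least 1418 CPM in the other WT LPS samples. Results of the LPS experiment are therefore given with and without these libraries, which are shown apart. P2ry12 in the KO was 84.2 to 154.1 CPM at LPS and 585 to 1243 CPM at ns.

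Across the sex experiment, Ighm was plentiful and even across the animals, while Igkc, Cd79a and Ms4a1 were lower and differed more between animals, though Cd79a and Ms4a1 stayed within 1.08 to 1.91 and 0.770 to 0.994 CPM in male KO. Ighm ranged from 278.5 to 460.2 CPM over the 18 animals. It was 351 to 397 CPM in male WT, 346 to 460.2 CPM in male KO, 278.5 to 388 CPM in female WT and 334 to 390.5 CPM in female KO animals. The 4 groups overlapped.
Igkc ranged from 2.02 to 50.96 CPM. Male WT 5 was highest at 50.96 CPM, and the next animal, female WT 2, held 17.1 CPM. The lowest were male KO 5 at 2.02 and male WT 3 at 2.43 CPM. Within a library there were 7.61 (male WT 5) to 171.3 (male KO 5) counts of Ighm per count of Igkc.

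**Figure D1:**
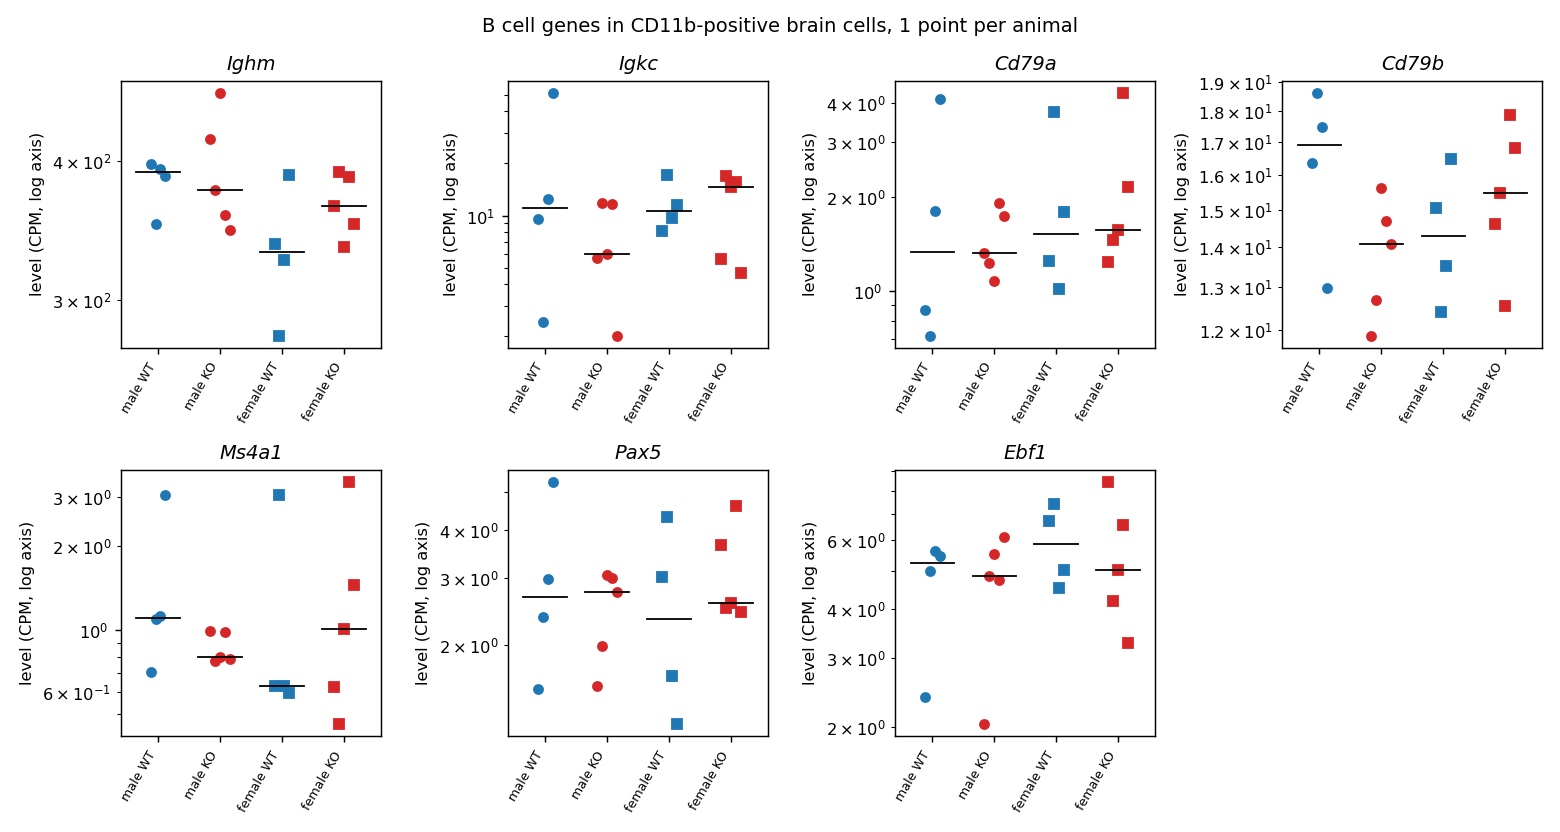
Levels of the 7 genes in the sex experiment, in CPM on a log axis that differs between panels, with 1 point per animal and a line at each group median. Ighm stays within 278.5 to 460.2 CPM and Cd79b within 11.9 to 18.6 CPM, whereas Igkc spans 2.02 to 50.96 CPM and 3 animals stand high for Cd79a and Ms4a1.

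The partner chains of the B cell receptor were unequal. Cd79b was at 13.0 to 18.6 CPM in male WT, 11.9 to 15.6 in male KO, 12.4 to 16.5 in female WT and 12.5 to 17.9 in female KO animals, so that the groups overlapped. Cd79a was at 0.719 to 4.31 CPM. Per kilobase of the counted gene span, Cd79b had 3.68 to 5.78 and Cd79a 0.165 to 0.989 CPM, and within an animal Cd79b was 4.26 to 35.1 times higher. Ms4a1 was at 0.0278 to 0.206 CPM per kilobase of span, against 71.3 to 117.8 for Ighm and 6.32 to 159.2 for Igkc. The spans, 16471 bases for Ms4a1, 3905 for Ighm and 320 for Igkc, take in any introns. Values per kilobase are therefore not comparable as levels between these genes.

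The same 3 animals were highest for Cd79a and for Ms4a1. Cd79a was 4.31 CPM in female KO 4, 4.12 in male WT 5 and 3.74 in female WT 2, and at most 2.16 CPM in the other 15 animals. Ms4a1 was 3.39, 3.05 and 3.03 CPM in these animals in that order, and at most 1.45 CPM in the others. Pax5 was also highest in them, at 4.60, 5.32 and 4.32 CPM, against at most 3.65 CPM elsewhere. Ighm in these animals was 387, 388 and 278.5 CPM, and female WT 2 was the lowest of the 18. The summed level of 6 monocyte markers was highest in the same animals, at 3913 CPM in male WT 5, 2165 in female WT 2 and 711.9 in female KO 4, against at most 649.7 CPM in the others. The 8 neutrophil markers summed to 48214 CPM in male WT 5 and 28621 in female WT 2, but to 5401 in female KO 4, which lies within the 720 to 7667 CPM of the others. The part of these cells in the result was not tested.

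**Figure D2:**
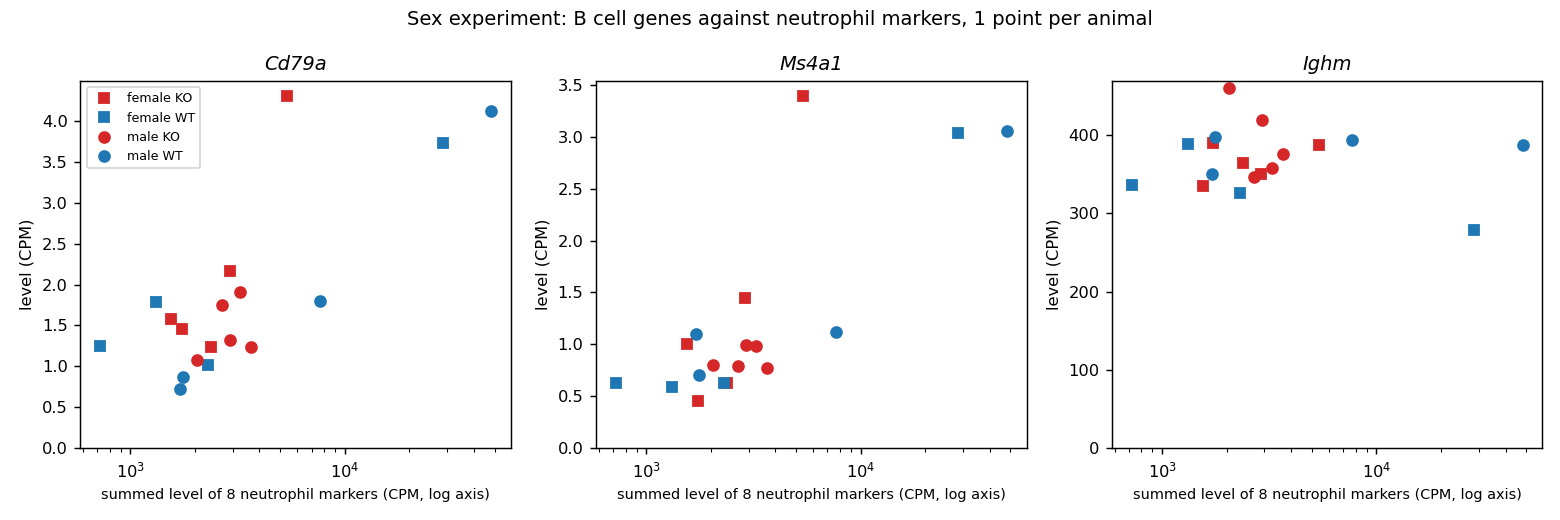
Levels of Cd79a, Ms4a1 and Ighm in CPM (vertical axes from 0) against the summed level of 8 neutrophil markers in CPM on a log axis, 1 point per animal of the sex experiment. The animals at 3.74 to 4.31 CPM for Cd79a are also those at 3.03 to 3.39 CPM for Ms4a1, and for Ighm they lie at 278.5 to 388 CPM.

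Pax5 and Ebf1 lie in long genes whose introns were counted, so their values can include unspliced RNA. Over the 18 animals Pax5 was at 1.24 to 5.32 CPM and Ebf1 at 2.03 to 8.44 CPM. Per kilobase these came to 0.00669 to 0.0286 and 0.00512 to 0.0213 CPM, which is not comparable with the values of genes with short spans. Ebf1 was highest in female KO 1 at 8.44 CPM and in female WT 2 at 7.42 CPM, and the ordering of animals for Ebf1 was not that of Cd79a.

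None of the 7 genes passed the test for P2RY12 deficiency or for sex. All 7 passed the filter on low counts, and 0 were called in each of 5 comparisons, where called means an adjusted p under 0.05 from edgeR's quasi-likelihood test with Benjamini-Hochberg adjustment over all genes tested. Among 31709 genes tested the share called was 0.00946% for KO against WT in males, 0.164% in females and 0.432% over both sexes. It was 0.0725% for female against male WT. It was 0% for the sex-by-genotype interaction, where 879 genes had an unadjusted p under 0.05 and DESeq2 also called 0. With backgrounds this low, 0 of 7 is no result about these genes.
KO minus WT over both sexes was 0.09 ± 0.07 on the log2 scale (± SE) for Ighm and -0.07 ± 0.09 for Cd79b, the 2 genes with the smallest errors. It was -0.68 ± 0.50 for Igkc, -0.31 ± 0.42 for Ms4a1 and -0.12 ± 0.35 for Cd79a. Pax5 was at -0.01 ± 0.26 and Ebf1 at -0.05 ± 0.22. The adjusted p-values of these 7 (edgeR) lay between 0.795 and 0.9999. The sign for Cd79a and Ms4a1 turned to 0.24 and 0.01 without male WT 5 and to 0.15 and 0.18 without female WT 2.

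In the LPS experiment, Ighm fell with LPS in both genotypes once the WT libraries of number 2 were set apart. From much lower counts, Ms4a1, Igkc and, without a filter, Pax5 then fell too. Cd79a was then called lower in WT only, and Cd79b did not pass the test. In the KO groups, which hold none of the libraries in doubt, Ighm was at 402, 509.7, 503, 487, 492, 302, 423 and 462 CPM in KO ns 1 to 8. In KO LPS 1 to 8 it was at 109, 129, 203, 125, 164, 155, 103 and 107 CPM. The groups did not overlap. The log2 fold change was -1.71 ± 0.36 (adjusted p = 0.00135, edgeR), and all 8 KO LPS samples lay below the lowest KO ns sample.
In WT, the 6 other ns samples held 395 to 471 CPM of Ighm with a median of 431, and the 6 other LPS samples held 62.0 to 152.1 CPM with a median of 79.2. Samples WT ns 1 and WT ns 5, as labelled, held 77.9 and 116 CPM. Those labelled WT LPS 1 and WT LPS 6 held 365 and 290.4 CPM. With all samples the log2 change in WT was -1.20 ± 0.35 (adjusted p = 0.106, edgeR), and without the 4 libraries it was -2.18 ± 0.22 (adjusted p = 2.85e-08, edgeR).

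**Figure D3:**
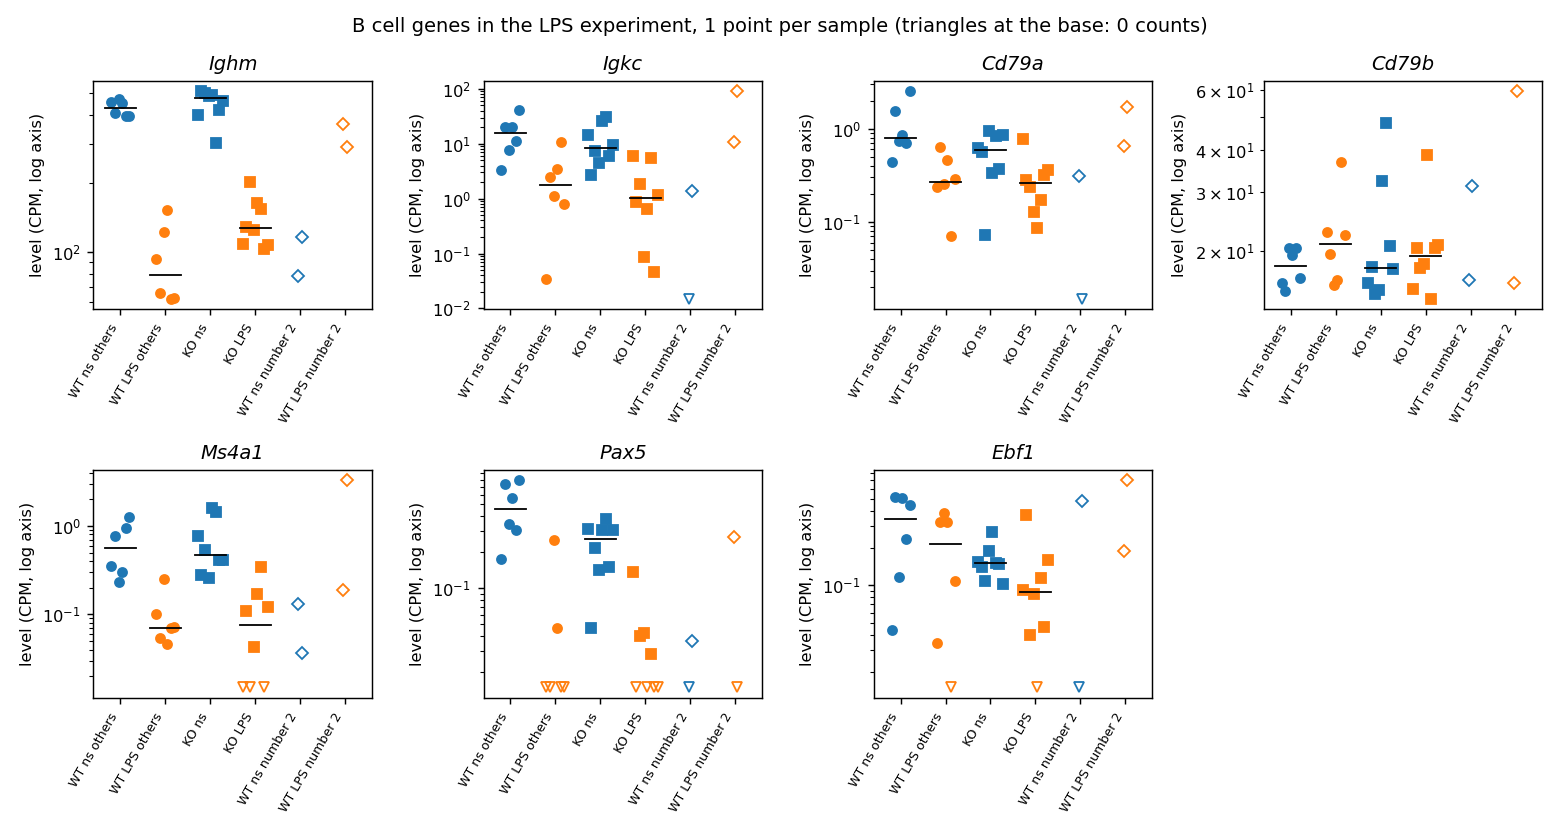
Levels of the 7 genes in the LPS experiment, in CPM on log axes that differ between panels, with 1 point per sample, open diamonds for the WT libraries of number 2 and open triangles at the base for 0 counts. Lines are medians where these are above 0.02 CPM. For Ighm the filled ns and LPS points do not overlap, and the diamonds lie at the level opposite to their label.

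Ms4a1 was near the limit of detection. KO ns samples held 6 to 47 counts, or 0.261 to 1.58 CPM, and KO LPS samples 0 to 12 counts, or 0 to 0.342 CPM, with 0 counts in 3 of 8. A count of 3, the upper limit that 0 counts allow, corresponds to 0.119 to 0.138 CPM in those 3 samples, counting error only. The log2 change in KO was -2.79 ± 0.79 (adjusted p = 0.011, edgeR). The other WT samples held 0.233 to 1.27 CPM at ns and 0.0466 to 0.253 CPM at LPS, which overlapped slightly. The library labelled WT LPS 6 held 42 counts, or 3.29 CPM, the highest CPM of the 32 samples. In WT the change was -0.36 ± 0.71 (adjusted p = 0.787) with and -2.48 ± 0.67 (adjusted p = 0.00586, edgeR) without the 4 libraries.

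Igkc was 2.69 to 30.7 CPM (median 8.53) at KO ns and 0.0461 to 6.00 CPM (median 1.02) at KO LPS. In the other WT samples it was 3.38 to 41.0 CPM (median 15.8) at ns and 0.034 to 10.7 CPM (median 1.81) at LPS. The ns and LPS samples overlapped in both genotypes. Samples WT LPS 6 and WT LPS 1, as labelled, held 90.2 and 10.6 CPM, and those labelled WT ns 1 and WT ns 5 held 0 and 1.39 CPM. The log2 change in KO was -2.34 ± 1.01 (adjusted p = 0.0942) with all samples and -2.39 ± 0.77 (adjusted p = 0.0203, edgeR) when the 4 WT libraries were left out of the fit that estimates the spread. In WT it was -0.12 ± 0.95 (adjusted p = 0.951) with and -2.57 ± 0.89 (adjusted p = 0.0286, edgeR) without them.

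Cd79a and Cd79b again parted. Cd79a was 0.0717 to 0.949 CPM at KO ns and 0.0853 to 0.772 CPM at KO LPS, from 2 to 40 counts, and its log2 change of -0.95 ± 0.61 was not called (adjusted p = 0.286, edgeR). In WT without the 4 libraries it fell, from 0.439 to 2.51 CPM at ns to 0.0703 to 0.643 CPM at LPS, with a log2 change of -1.75 ± 0.52 (adjusted p = 0.0122, edgeR). With them the change was -0.77 ± 0.59 (adjusted p = 0.428). Whether the WT and KO changes differ was tested by the genotype-by-LPS interaction, which called no member.
Cd79b was 14.9 to 47.9 CPM at KO ns and 14.5 to 38.5 CPM at KO LPS, a log2 change of -0.08 ± 0.23 (adjusted p = 0.838, edgeR). In WT the change was 0.37 ± 0.23 (adjusted p = 0.325) with and 0.33 ± 0.26 (adjusted p = 0.368, edgeR) without the 4 libraries. Its spread came from 6 samples of library set 2: KO ns 5, KO ns 6, KO LPS 5, WT ns 5, WT LPS 6 and WT LPS 7 held 31.2 to 59.6 CPM, and the other 26 samples 14.5 to 22.8 CPM. These 6 carry the library number 2 or 3, which KO LPS 6 and WT ns 6 of that set, at 14.5 and 19.6 CPM, carry too. In set 1 alone the KO change was 0.19, opposite in sign to that over both sets.

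Pax5 and Ebf1 did not pass the filter in this table and have no value in the main test. Pax5 had 1 to 9 counts per KO ns sample and 0 to 3 per KO LPS sample, with 0 counts in 4 of 8. The other WT samples had 4 to 56 counts at ns and 0 to 6 at LPS. Fitted without a filter, the log2 change of Pax5 was -2.87 ± 0.87 in KO (adjusted p = 0.032) and -2.36 ± 0.78 in WT (adjusted p = 0.197, edgeR). Without the 4 libraries it was -2.83 ± 0.73 in KO (adjusted p = 0.007) and -3.26 ± 0.77 in WT (adjusted p = 0.00325, edgeR). Ebf1 had 0 to 19 counts per sample, and its change was -0.33 ± 0.64 in KO and -0.20 ± 0.60 in WT (adjusted p = 0.857 and 0.949, edgeR, no filter).

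**Figure D4:**
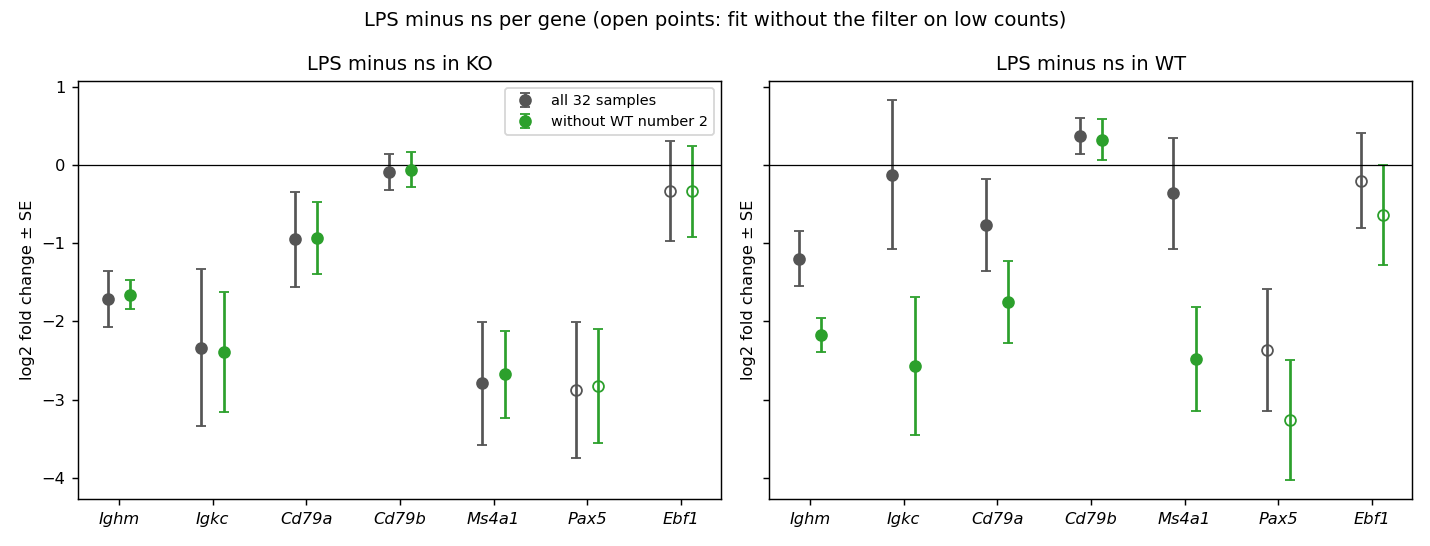
Log2 fold change of LPS minus ns with its SE for each gene, in KO (left) and WT (right), from the fit of all 32 samples and from the fit without the WT libraries of number 2. Open points are from fits without the filter on low counts. Without those libraries Ighm, Igkc, Ms4a1, Pax5, Cd79a and Ebf1 lie below 0 in both genotypes, Ebf1 by less than its SE in KO. Cd79b lies near 0.

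In all, 2 of the 5 members tested, Ighm and Ms4a1, were called for LPS in KO, where 22.3% of 15857 genes were called. In WT 0 of 5 were called and 0% of all genes, with 3605 genes at an unadjusted p under 0.05, while DESeq2 called 732 genes and, of the members, Ighm alone. Without the WT libraries of number 2, 3 of 5 were called in KO against 28.5% of 16088 genes, and 4 of 5 in WT against 30.7%, all lower at LPS. Within library set 1 the KO change of Ighm was -1.72 (adjusted p = 0.0296, edgeR). Within set 2 it was -1.59 (adjusted p = 0.193), and no gene of any kind was called there.
For KO against WT, 0 of 5 members were called at ns and at LPS, which at this background is no result about them. The background was 0.114% called at ns and 0.126% at LPS with all samples, and 0.0932% and 0.0746% without the WT libraries of number 2. The interaction called 0% of genes with and 0% without them, with 1698 and 708 genes at an unadjusted p under 0.05 and 11 and 3 called by DESeq2. For Ighm, KO minus WT was 0.36 ± 0.35 at ns and -0.15 ± 0.35 at LPS with all samples. Without the 4 libraries it was 0.06 ± 0.20 at ns and 0.58 ± 0.20 at LPS (adjusted p = 0.869 and 0.51, edgeR), so the sign at LPS rests on them. The 8 KO LPS samples at 103 to 203 CPM and the 6 other WT LPS samples at 62.0 to 152.1 CPM overlapped. For Igkc and Ms4a1 at LPS it was -2.29 ± 1.04 and -2.0 ± 0.81 with the 4 libraries (adjusted p = 0.637 and 0.536) and -0.25 ± 0.83 and -0.04 ± 0.78 without them (both adjusted p = 0.9998, edgeR).

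Marker sums of several other cell types were also lower at LPS, but not those of all. The 6 monocyte markers had a median sum of 260.2 CPM at KO ns and 422.4 at KO LPS, with overlapping ranges. In the other WT samples it was 468.9 CPM at ns and 523.3 at LPS. For the 8 neutrophil markers it was 905.5 and 2104 CPM in KO, also overlapping, and 2549 and 2478 CPM in the other WT samples. For the 4 astrocyte markers it was 2.74 and 4.01 CPM in KO. The summed level of 10 T and NK cell markers was 15.3 to 71.0 CPM at KO ns and 1.95 to 23.7 at KO LPS, and 32.8 to 64.7 at the other WT ns against 9.15 to 40.8 CPM at the other WT LPS samples. The library labelled WT LPS 6 held 165.8 CPM, and its 5 erythroid markers summed to 22301 CPM, against at most 1086 CPM in the other samples. The 6 dendritic cell markers summed to 54.9 to 92.8 CPM at KO ns and 25.7 to 50.4 at KO LPS, and to 65.7 to 86.3 at the other WT ns against 25.2 to 52.6 CPM at the other WT LPS samples, without overlap in either genotype. The 6 endothelial markers summed to 61.9 to 95.7 CPM at KO ns and 24.2 to 64.8 at KO LPS, and to 48.8 to 59.7 at the other WT ns against 15.3 to 38.0 CPM at the other WT LPS samples. The 9 microglial markers, P2ry12 among them, summed to 29203 to 34601 CPM at KO ns and 20980 to 25499 CPM at KO LPS. In the other WT samples they summed to 22670 to 37945 CPM at ns and 16987 to 24754 CPM at LPS, which overlapped. Among the other WT ns samples, WT ns 8 and WT ns 3 had the most Cd79a, 2.51 and 1.56 CPM, and the most neutrophil markers, 16058 and 17265 CPM, against 318 to 3541 in the remaining 4. WT LPS 7 had 13474 CPM of neutrophil markers with 0.0703 CPM of Cd79a, from 1 count. The library labelled WT LPS 6 had 5296 CPM with 1.72 CPM. In the KO ns group, KO ns 6, KO ns 4 and KO ns 1 had the most neutrophil markers, 10152, 7370 and 6188 CPM. Their Cd79a was 0.835, 0.949 and 0.6175 CPM, while KO ns 8 had 699.1 CPM of the markers with 0.847 CPM of Cd79a. The part of each of these in the results was not tested.

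Heavy-chain variable segments held a small share of the Ighm count, and kappa segments a larger share of the Igkc count. The sex table lists 183 Ighv and 162 Igkv segments, the sequences that are joined to a constant gene when a B cell forms its receptor. Summed Ighv counts came to 0.288% to 7.75% of the Ighm count (median 1.24%), whereas summed Igkv counts came to 42.8% to 89.1% of the Igkc count (median 69.7%). Male WT 5 and female WT 2 had the highest heavy-chain shares, 7.75% and 5.01%, and the other 16 animals had at most 2.41%. Male WT 5 had 82 Ighv segments with a count, against 19 to 51 in the rest. In the LPS experiment the median shares were 0.990% for Ighv over Ighm and 75.4% for Igkv over Igkc, the latter from 0% in WT LPS 2 to 200% in KO LPS 7, each of which held 1 count of Igkc. The Ighv share reached 7.55% in WT ns 8 and 6.17% in the library labelled WT LPS 6. The counted span in the sex experiment is 3905 bases for Ighm and 320 bases for Igkc, and the shares are not corrected for it. The heavy-chain and kappa shares are therefore not on a common scale. Segment reads can also be lost or split between near-identical copies in counting, so these shares are descriptions and their scale is uncertain.
The joining segments Ighj, named here after their values were seen, were also lower at LPS. Over the 18 animals 4 Ighj segments summed to 4.60% to 6.14% of the Ighm count. At KO ns the share was 0.679% to 4.93% (median 3.69%) and at KO LPS 0.391% to 1.39% (median 1.14%), with KO ns 6 the lowest of the ns samples. The 4 segments fell by 3.29 to 4.00 on the log2 scale with LPS in KO (adjusted p from 0.000497 to 0.00303, edgeR), beside -1.71 for Ighm, and the difference between them was not tested.

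**Figure D5:**
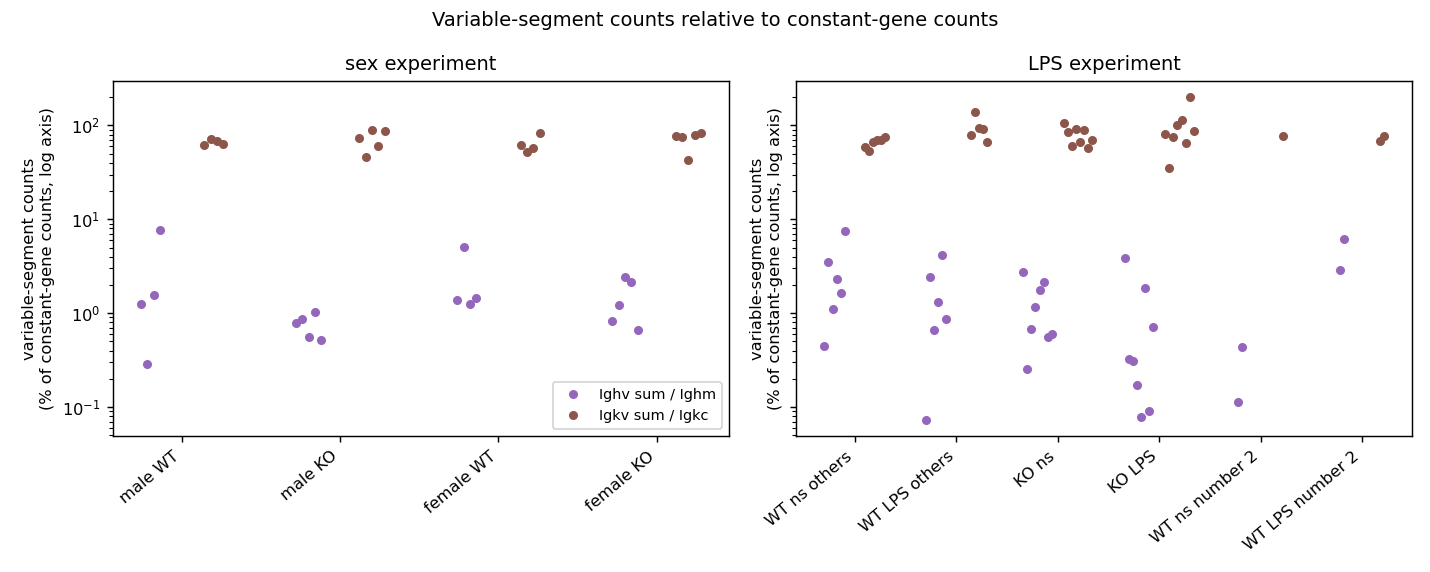
Summed counts of heavy-chain (Ighv) and kappa (Igkv) variable segments as a percentage of the count of Ighm and Igkc, on a log axis, 1 point per sample. Samples with 0 segment or 0 constant-gene counts, WT LPS 2 and WT ns 1 for kappa, are not drawn. The kappa shares lie mostly between 40% and 100%, and the heavy-chain shares below 10%, without correction for the unlike spans of Igkc and Ighm.

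Of the other genes listed for the B lineage, more fell than rose with LPS in KO. A listed gene need not be expressed by B cells alone, and the cells of origin were not tested. These lists were chosen with earlier results of these data known. The counts below stand beside 22.3% of all genes called in KO, 1905 lower and 1637 higher, and 30.7% in WT without the WT libraries of number 2, 2447 lower and 2487 higher. Of 16 other surface and signalling genes 12 were tested, and in KO 6 fell and 1 rose, with a median log2 change of -1.21 against -0.02 over all genes. Btla, an inhibitory receptor of lymphocytes, fell by 2.47 on the log2 scale. Fcrl1, an Fc receptor-like protein, fell by 2.03, from 51.6 to 97.0 CPM to 9.24 to 22.3 CPM. At KO ns Cd79a was at most 0.949 CPM and Ms4a1 at most 1.58 CPM, far below Fcrl1. Cd72, an inhibitory co-receptor, rose by 4.49 ± 0.76 (adjusted p = 0.000354, edgeR), from 6.08 to 13.3 CPM at KO ns to 120.0 to 351 CPM at KO LPS. In WT 0 of the 12 were called with all samples, and 7 of 13 fell and 2 rose without the WT libraries of number 2. Cd72 rose by 4.34 and Btla fell by 2.31 there.
Of 8 transcription factors of the lineage 7 were tested and 2 fell in KO: Bcl11a, needed for early lymphocytes, by 1.86 and Irf4, a factor of plasma cell formation, by 0.92. The list's median was -0.69. Of 10 other immunoglobulin constant genes 4 were tested and 2 fell, Ighd (IgD) by 2.19 and Iglc1 (lambda light chain) by 5.92, with a median of -2.52. Ighd was 2.33% to 4.62% of the Ighm count in the sex experiment and 1.48% to 4.73% in the LPS experiment. Of 8 precursor genes only Il7r, the interleukin-7 receptor, was tested, and it fell by 2.59. Of 7 plasma cell genes 5 were tested, 3 fell and 1 rose, with a median of -1.33. Tnfrsf17 fell by 4.31, Jchain, which joins IgA and IgM units, by 3.08 and Prdm1 by 1.33, while Derl3, of endoplasmic reticulum quality control, rose by 1.51. All of these were called by edgeR with adjusted p-values of 0.000337 to 0.0319. In WT 0 genes of these 4 lists were called with all samples. Without the WT libraries of number 2, 3 of 7, 5 of 5, 1 of 1 and 2 of 6 fell, and 0, 0, 0 and 2 rose.
For KO against WT over both sexes of the sex experiment, 0 genes of the 5 lists were called.

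The genes most like each member across samples were found by Pearson's r of log2 CPM over all genes that passed the filter, with r as a description. For Ighm in the LPS experiment, over 32 samples that share treatment and depth differences, they were Npnt (r = 0.98), Ighd (0.98) and Prkca (0.98). For Igkc they were Jchain (0.96), Igha (0.93) and Ccr3 (0.89). For Cd79b they were Prcp, Cdkal1 and Prdx4 (0.93, 0.92 and 0.92). Ms4a1 was closest to Gm31812, Stbd1 and Ccl24 (0.88, 0.85 and 0.84), and Cd79a to Pla2g3, Tbc1d10c and Gm26571 (0.82, 0.80 and 0.80). Among the members, the r of Cd79a with Cd79b was -0.12. That of Ighm with Igkc was 0.64, at rank 1654 of 15857 genes for Ighm.
Over the 18 animals of the sex experiment, Ighm was closest to Ighj1, Gm46252 and Gm4037 (0.85, 0.82 and 0.82). Igkc was closest to Jchain, Fbxl8 and Pbxip1 (0.85, 0.84 and 0.84). Cd79a was closest to Gm53599, Cmah and Gm40950 (0.91 each), Cd79b to Gp9, Tmem176a and Gm44764 (0.82, 0.81 and 0.80), and Ms4a1 to LOC118568357, Mir223 and Il1bos (0.91, 0.89 and 0.89). Pax5 was closest to Slc36a3, Stab2 and Rhcg (0.90, 0.87 and 0.86), and Ebf1 to Slco6b1, Gtf2a1l and Nrg1 (0.97, 0.96 and 0.96). Cd79a went with Ms4a1 (r = 0.80) and Pax5 (0.65), but Ighm went with neither Igkc (0.01) nor Cd79a (-0.21).

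On GRCm39, as the sex table gives it, Ighm lies at chr12:113382446-113386350 on the minus strand and Igkc at chr6:70703419-70703738 on the plus strand. Cd79a lies at chr7:24596922-24601283 (plus), Cd79b at chr11:106202167-106205388 (minus) and Ms4a1 at chr19:11227043-11243513 (minus). Pax5 spans chr4:44524748-44710694 (minus, 185947 bases) and Ebf1 chr11:44502738-44898923 (plus, 396186 bases). Several spans overlap another listed gene, and the counts of such pairs are uncertain. Ighm lies inside the entry Igh (mean 580.5 CPM against 369 for Ighm), and Igkc inside Igk (55.8 against 12.0 CPM). Ms4a1 overlaps 4930526L06Rik on the other strand (2.43 against 1.23 CPM), and Pax5 overlaps Mir5120, Gm12462 and 5730488B01Rik, all at or below 0.124 CPM. Without a stated strand setting, reads of such antisense partners cannot be told apart. Cd79a, Cd79b and Ebf1 overlap no other listed gene.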

How the data were processed

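The authors deposited raw counts per gene, 1 table per experiment, of poly(A) RNA. STAR 2.6.1, featureCounts and GRCm39 are named in the submitters' processing notes. Per the file headers, genes of the sex table are counted over whole spans, introns included. Low counts (1 to 20) there are even in 79.0% to 89.2%, against 39.7% to 45.5% in the LPS table, so each table was fitted alone. Of 57 labelled libraries, 6 repeats without a column are not analysed here.

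Low genes were removed by filterByExpr (edgeR 4.0.16, R 4.3.3), TMM gave the scaling, and the quasi-likelihood F test was used, with a mean per group and, for LPS, a library set term. P-values were adjusted over all genes tested, and 0.05 was the threshold. SE is the fold change divided by the square root of F. The test was also run on simulated counts, with changes set only in genes of higher mean count. Low-count members and libraries that go against their labels were outside that run. WT LPS 8 and WT LPS 9 had a chi-square per degree of freedom of 1.86, against at least 8.31 in other pairs of their experiment, and were summed as 1 sample. The labels do not say that each sample is a separate mouse (animal stands for a sample of the sex experiment), so p-values measure the spread between these samples, which may be technical.

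Members and lists were chosen with earlier results of these data known. All members are named. Of each list, up to 4 called genes with the largest change are named, and of likeness the 3 highest r. One result is not reported here. Alternatives were DESeq2 1.42.0, RLE scaling, other filters, a replicate block, single sets and left-out samples.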

Additional observations from a re-analysis of the deposited data

Results flagged for a closer look

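Dixon's criterion for 1 sample far from the rest of its group was applied to 56 pairs of a gene and a group. In 9 pairs a sample stood apart, from 6 different samples, each time as the highest. The criterion's chance rate of about 1 in 20 holds for normally distributed values, which CPM from few counts need not follow. WT ns 5 and WT LPS 6, among these samples, also go against their labels, so the number is not set against chance. In the sex experiment Ms4a1 was 3.03 CPM in female WT 2, against 0.630 CPM in the next female WT animal. In KO LPS, Cd79a was 0.772 CPM in KO LPS 1 (next 0.360) and Pax5 was 0.136 CPM there (next 0.0425), from 17 and 3 counts. Ebf1 was 0.371 CPM in KO LPS 2 (next 0.160), and Cd79b was 38.5 CPM in KO LPS 5 (next 20.8). Cd79b was 31.2 CPM in the library labelled WT ns 5 (next 20.5). The library labelled WT LPS 6 was highest for 3 genes, with Cd79a at 1.72 CPM (next 0.644), Ms4a1 at 3.29 CPM (next 0.253) and Igkc at 90.2 CPM (next 10.7).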

How the results depend on the processing

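For the 5 comparisons of the sex experiment, and for KO against WT and the interaction in the LPS experiment, 0 members were called in each alternative run. Single samples were left out in turn in the sex experiment only. In KO with LPS, 2 members were called: 1 with a filter at a mean of 1 CPM and in set 1 alone, 0 in set 2 alone, and, without the WT libraries of number 2, 4 without a filter and 1 in set 2. In WT with LPS, 0 were called: 1 with DESeq2, and without the WT libraries of number 2 it was 4 in the main test and in DESeq2, 4 without every library of number 2, 5 without a filter, and 1 in either set alone. Leaving out WT LPS 5 as well gave 4. Over all genes DESeq2 called more than edgeR: 157 against 18 and 135 against 20 for KO against WT at ns and LPS, 732 against 0 for LPS in WT, 25 against 3 in males, 185 against 52 in females, 320 against 137 over both sexes and 153 against 23 for sex in WT.

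The replicate block gave 3 members in KO and 0 in WT, and 4 in WT without the WT libraries of number 2. Igkc in KO was then called, at -2.63 (adjusted p = 0.0413). Library numbers were not taken as pairs, as the labels give no shared litter or day. Of same-numbered pairs, 32 of 45 correlated over 0.1 in deviations from the group mean, with r from -0.664 to 0.795. Their mean r was 0.24, against 0.02 over 339 other pairs, and they include the WT libraries of number 2. Whether equal numbers mark pairs is therefore left undecided. In the sex experiment 7 of 24 correlated over 0.1 (mean r 0.00677).

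Signs turned for values that were not called. KO minus WT of Ighm at LPS was 0.58 without the WT libraries of number 2, 0.55 with DESeq2 or no filter as well, 0.79 with the replicate block or without WT LPS 5 as well, 0.60 and 0.56 in set 1 and set 2, 0.55 without any library of number 2, and 0.05 in set 2 with all. Igkc there was 0.91 in set 1 and Ms4a1 1.34 in set 2, both without the WT libraries of number 2, and Ms4a1 0.06 without any library of number 2. At ns, Cd79b was -0.10 in set 1 (-0.12 without the WT libraries), Ms4a1 -0.28 without any library of number 2 and -0.27 with the block and without the WT ones, and Igkc 0.01 in set 2. For LPS in KO, Cd79b was 0.19 in set 1 (0.22 without the WT libraries). For LPS in WT, Igkc was 0.44 in set 2 and 0.17 without the set term, and Ms4a1 0.29 in set 2. In the sex experiment Pax5 was 0.02 without a filter. With single animals left out, KO minus WT ran from -0.12 to 0.20 for Pax5, -0.16 to 0.04 for Ebf1, -0.33 to 0.24 for Cd79a and -0.63 to 0.18 for Ms4a1. The cause was not tested. Depth limits Pax5, Ebf1, Cd79a and Ms4a1 in the LPS experiment, where many samples hold under 10 counts.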
